A study of Mus musculus with 10 samples.

Results

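Complement is a set of plasma and cell surface proteins that act in a cascade. C1q binds antibody or other patterns on a surface and starts the classical pathway, C4 and C2 form the first convertase, C3 is the component on which all pathways meet, and factor B carries the alternative pathway that amplifies C3 cleavage. The fragments C3a and C5a are anaphylatoxins that call in and activate myeloid cells through their receptors, and C1 inhibitor shuts the first step down. The liver makes most circulating complement, whereas C1q comes mainly from macrophages and dendritic cells, which is why its genes are read as macrophage genes in tumors.

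The genes described are 9 members of this system, taken by symbol from 37417 genes in the count table: the C1q chain genes C1qa, C1qb and C1qc; the components C3, C4b and Cfb (factor B); the inhibitor Serping1 (C1 inhibitor); and the receptors C3ar1 (for C3a) and C5ar1 (for C5a). They were measured by bulk RNA-seq in 10 tumors grown under the skin from Panc02, a mouse pancreatic cancer cell line, in wild-type C57BL/6J mice 12 weeks old, and taken on day 16 after injection. In 5 tumors the injected cells carried a guide against Cda, which encodes cytidine deaminase (sgCda), and in 5 a nontargeting guide (sgNT). Cells of both groups had gone through lentiviral transduction, puromycin selection and a course of doxycycline to switch on Cas9. The host mice kept Cda, so RNA from host cells carries it in both groups, and the study's authors regard Panc02 as a limited model of the human disease. The comparison asks whether Cda targeting in the cancer cells changed the tumor's complement genes.

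Assigned counts ran from 28051907 to 39484964 per tumor, and the 9 members together took 0.344 to 0.480% of them. Levels are given as CPM, counts relative to the scaled library size. Cda itself averaged 12.1 ± 1.76 CPM over the sgNT group and 9.77 ± 2.34 CPM over the sgCda group (SD, 5 tumors each), a log2 fold change of -0.30 (SE 0.17) with overlapping groups and an edgeR adjusted p of 0.9996, so the whole-tumor count does not separate the groups. A pair of sgCda tumors stood apart from the rest. In sgCda replicate 4, mitochondrial genes took 5.82% of counts against 3.47 to 3.81% elsewhere, and Col1a2, a fibroblast collagen gene, was at 23.0 CPM against 162 to 1264 CPM. Of the other fibroblast markers, Fbln2 (1.13 CPM) and Postn (12.5 CPM) were also lowest in this tumor. Dcn, in contrast, was highest there (2422 CPM), and the rest, such as Pdgfra (155 CPM) and Pdgfrb (257 CPM), lay within the range of the other tumors. Replicate 3 of sgCda had the highest skeletal muscle marker score (8.20 log2 CPM). All 12 macrophage, 10 fibroblast and 8 pancreatic epithelial markers passed the filter on low counts, but only 1 of 8 hepatocyte markers did, and the summed hepatocyte level ran from 0.411 to 0.806 CPM with sgNT and from 0.467 to 0.699 CPM with sgCda, with Ttr and Serpina1a at 0 in all 10.

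The 3 C1q genes lie next to each other on the minus strand of chromosome 4 (GRCm38, GENCODE M21): C1qb at chr4:136880129-136886187, C1qc at chr4:136889804-136893065 and C1qa at chr4:136895917-136898803, with 3616 and 2851 bases between them. Cda lies on the same chromosome, 1.44 Mb from C1qa. C4b (chr17:34728380-34743882), Cfb (chr17:34856374-34862518) and C3 (chr17:57203970-57228136) are on chromosome 17, Serping1 (chr2:84765387-84775444) on chromosome 2, C3ar1 (chr6:122847138-122856161) on chromosome 6 and C5ar1 (chr7:16246743-16259540) on chromosome 7. All 9 are protein coding and on the minus strand.

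RefSeq promoter windows (GRCm38.p6, minus strand, 250 bases before to 50 after the gene's start) were at hand for 5 of the 9 members. C1qb (chr4:136886151-136886450) and C1qc (chr4:136892865-136893164) are printed because the C1q genes varied together, and C3 (chr17:57228087-57228386) because it did not vary with them. Capitals mark GAGGAA, the core that the myeloid factor PU.1 recognises (printed as TTCCTC where it is on the other strand), in the C1q windows, and TTGCNNAA, which C/EBP factors recognise, in C3, where the letters TATAAA of a core promoter box are capital too.
C1qb: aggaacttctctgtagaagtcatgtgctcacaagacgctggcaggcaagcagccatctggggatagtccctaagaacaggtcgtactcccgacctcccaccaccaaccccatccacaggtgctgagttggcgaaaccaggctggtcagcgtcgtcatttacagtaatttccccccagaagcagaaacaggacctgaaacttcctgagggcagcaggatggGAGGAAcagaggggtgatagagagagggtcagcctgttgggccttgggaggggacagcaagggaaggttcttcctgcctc
C1qc: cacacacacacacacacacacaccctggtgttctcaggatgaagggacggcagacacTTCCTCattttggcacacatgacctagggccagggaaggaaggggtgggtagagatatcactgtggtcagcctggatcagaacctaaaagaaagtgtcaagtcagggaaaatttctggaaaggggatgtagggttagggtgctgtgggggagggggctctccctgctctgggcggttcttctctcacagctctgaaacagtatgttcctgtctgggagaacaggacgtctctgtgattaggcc
C3: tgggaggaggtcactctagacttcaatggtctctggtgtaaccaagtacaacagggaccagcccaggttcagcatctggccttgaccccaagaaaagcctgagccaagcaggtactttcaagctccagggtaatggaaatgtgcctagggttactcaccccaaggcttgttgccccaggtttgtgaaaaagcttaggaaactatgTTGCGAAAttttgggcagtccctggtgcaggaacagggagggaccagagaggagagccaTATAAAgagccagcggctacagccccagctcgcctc
GAGGAA, searched on both strands, was in C1qb 30 bases before the start and in C1qc 193 bases before it, and in neither of the C3ar1 and C5ar1 windows nor in that of C3. It occurs in 28.3% of the 32851 promoter windows, so 2 of 5 is near the background. TTGCNNAA (10.8% of windows) was in C3 only, 45 bases before the start. TATAAA (13.6%) was in C3, 15 bases after the start that RefSeq gives, and in C3ar1, 235 bases before it. The MAF half-site TGCTGAC (4.67% of windows), the gamma-activated site TTCNNNGAA (8.30%) and the interferon-stimulated response element (3.44%) were in 0 of the 5 windows. The motifs were chosen after the sequences had been seen, and a match is a run of letters, not a bound site.

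Per kilobase of exon the C1q genes were by far the most abundant members. On the RPKM scale (CPM per kilobase of union exon length), C1qa was at 977 ± 134 and C1qb at 965 ± 159 (SD, n = 10 tumors), and these neighbours in the order could not be separated, since C1qa was the higher in 5 of 10 tumors. C1qc followed at 408 ± 44.0 RPKM, below C1qb in 10 of 10 tumors by 2.35-fold on average, although with the length of its longest coding transcript C1qc came to 655 RPKM. C3 was at 162 ± 47.8 RPKM, below C1qc in 10 of 10 tumors. By CPM, C1qb, C1qa, C3 and C1qc took places 73, 76, 104 and 112 among 15299 tested genes.

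The receptors and the inhibitor formed a middle range. C3ar1 was at 35.7 ± 5.69 RPKM, below C3 in 10 of 10 tumors. Serping1 was at 26.0 ± 5.77 RPKM, below C3ar1 in 9 of 10 tumors. With the length of its longest coding transcript Serping1 came to 34.1 ± 7.59 RPKM, close to C3ar1, so the separation of this pair depends on the length used. C5ar1 was at 10.9 ± 4.28 RPKM, below Serping1 in 10 of 10. C4b, at 8.52 ± 1.88 RPKM, was below C5ar1 in only 7 of 10 tumors, and the difference of their log2 levels was 0.31 ± 0.56 (SD), so this pair was not separated beyond its spread. Cfb was last at 0.774 ± 0.196 RPKM, 11.1-fold below C4b.

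Some of these levels are lower bounds on the transcript. Of the exonic bases of Cfb, 79.5% also belong to Gm20547, a predicted gene model on the same strand. Gm20547 also covers part of C2 and was at 0 counts in all 10 tumors. In its default mode HTSeq assigns no read that overlaps 2 genes. If the counting used that mode and this annotation, the 45 to 106 Cfb counts per tumor come from at most about 579 bases of its own. On those bases alone Cfb was at 3.78 ± 0.958 RPKM, beside 8.52 for C4b. This is still a lower bound, since reads that touch a shared base are lost too. Of the 50-base windows of C4b, 34.6% also occur in its close copy C4a, where reads aligning to both places are left out. None of the windows of the other 7 members occurred in another gene.

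**Figure D1:**
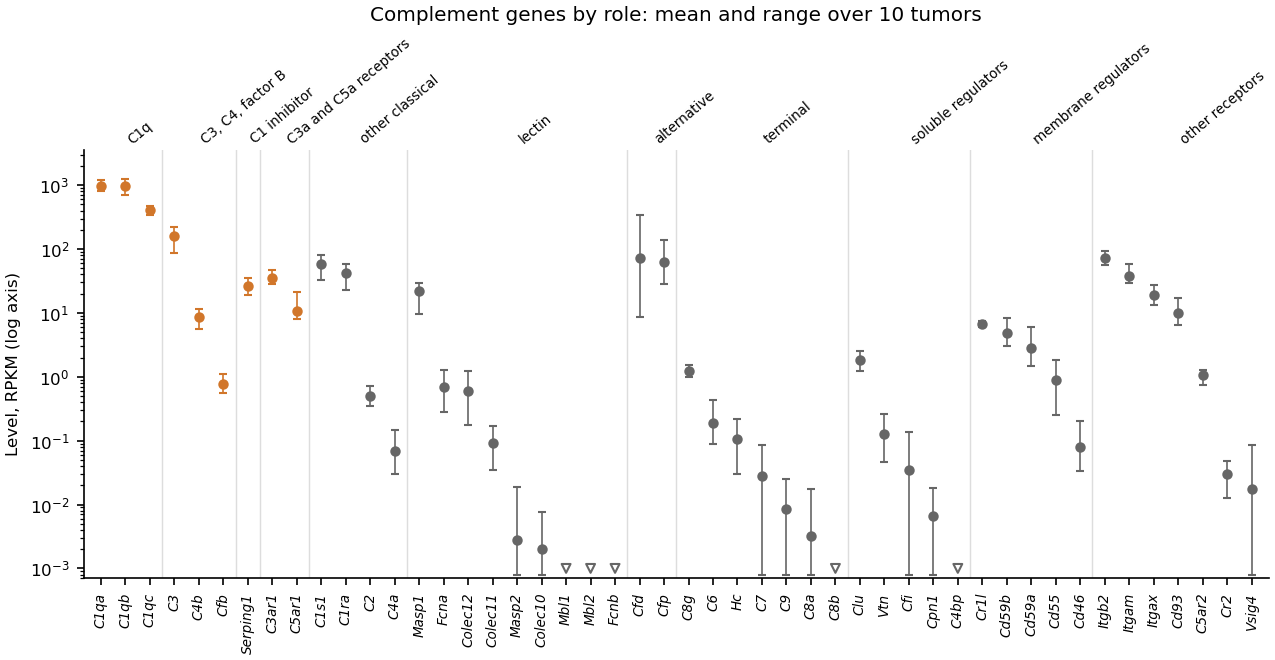
Mean level of the complement genes on the RPKM scale (log axis), with a bar from the lowest to the highest of 10 tumors; members in orange, other complement genes in grey, open triangles for means under the axis floor, bars that reach the floor include tumors at 0 or near it. C1qa and C1qb stand at 977 and 965 RPKM, and Cfb at 0.774 RPKM is the lowest member.

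No difference between sgCda and sgNT tumors was detected for any of the 9 members. All 9 passed the filter on low counts and 0 were called by edgeR's quasi-likelihood test at an adjusted p under 0.05, where the background was 0 of 15299 genes (0%). At an unadjusted p under 0.05 there were again 0 members, against 382 genes (2.5%), and DESeq2's Wald test and limma-voom called 0 members by either measure. No member had groups that did not overlap, against 92 genes (0.601%). Fold changes were above 0 for 3 members and below 0 for 6, where 47.1% of all genes tested were below 0, with a median of -0.05 on the log2 scale beside 0.01 over all genes tested. The adjusted p was 0.9996 for each.

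The C1q chain genes, whose products assemble into one hexameric protein, had log2 fold changes between -0.05 and 0.03. C1qa was at 999.8, 828.6, 1246, 941 and 1015 CPM in sgNT replicates 1 to 5 and at 992, 1254, 1057, 935 and 889.9 CPM in sgCda replicates 1 to 5. Each group held 1 tumor well above its others, sgNT replicate 3 and sgCda replicate 2, and the log2 fold change was 0.03 (SE 0.12, 95% confidence interval -0.25 to 0.30, edgeR unadjusted p = 0.827). C1qc was at 788, 666, 925, 757 and 809 CPM with sgNT and at 749.8, 913, 832, 751 and 689.9 CPM with sgCda. All 5 sgCda values lay within the sgNT range, and the log2 fold change of -0.0032 had an interval of -0.23 to 0.22, that is -14.8 to 16.9% on the linear scale. C1qb was at 1081, 874, 1280.0, 1005 and 1095 CPM with sgNT and at 1029, 1336, 1104, 769.6 and 921 CPM with sgCda. Its order of tumors matched that of C1qa except for sgCda replicate 4, which was the lowest of the 10 for C1qb alone, and the log2 fold change was -0.05 (SE 0.15, interval -0.37 to 0.28).

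That tumor shifted the ratio of the chains. The counts of C1qb were 0.823 times those of C1qa in sgCda replicate 4 and 1.03 to 1.08 times in the other 9 tumors. As a share of the counts of both genes, C1qb made up 45.2% in sgCda replicate 4 (95% exact Clopper-Pearson interval 44.7 to 45.6%) and 50.7 to 52.0% in the others, a gap beyond counting error, which is all such an interval covers. The ratio of C1qc to C1qa was 0.804 in the same tumor, inside the 0.728 to 0.805 of the rest. This was the library with the raised mitochondrial share, and the part of that in the ratio was not tested.

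**Figure D2:**
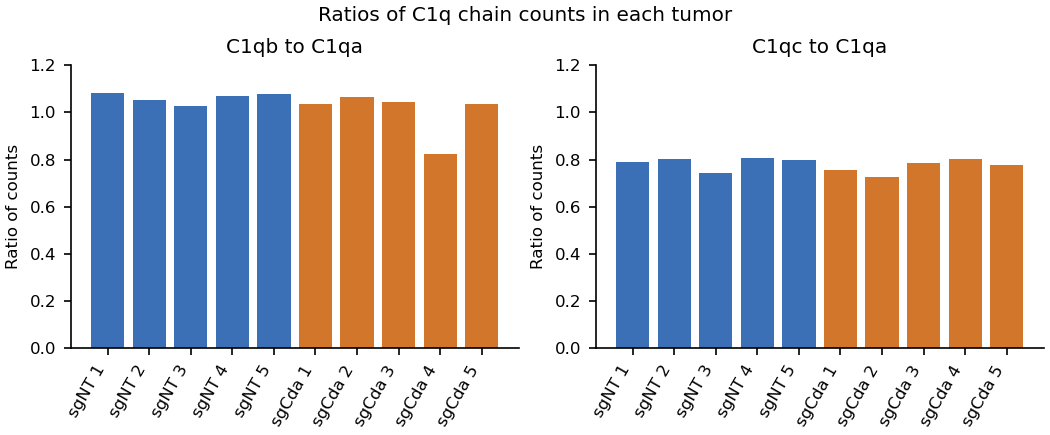
Ratio of counts of C1qb to C1qa (left) and of C1qc to C1qa (right), 1 bar per tumor, sgNT in blue and sgCda in orange. The C1qb to C1qa ratio is 0.823 in sgCda replicate 4 and 1.03 to 1.08 in the other 9 tumors, and no tumor stands out by the C1qc ratio to the same degree.

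The central components varied more from tumor to tumor. C3, cleaved in every complement pathway, was at 878, 979, 1157, 528 and 619 CPM with sgNT and at 1116, 973, 447, 942 and 711 CPM with sgCda. The range of 2.59-fold ran through both groups, and the log2 fold change of 0.01 had a wide interval of -0.57 to 0.59 (-32.7 to 50.6% on the linear scale, edgeR unadjusted p = 0.972). C4b, the C4 component of the classical and lectin pathways, was at 51.1, 49.8, 62.6, 47.3 and 53.8 CPM with sgNT and at 42.6, 66.7, 40.2, 39.4 and 31.9 CPM with sgCda. Of the sgCda tumors 4 lay below the lowest sgNT tumor, while sgCda replicate 2 lay above the highest, so that 0 of 5 fell within the sgNT range. The log2 fold change was -0.26 (SE 0.17, interval -0.64 to 0.12, edgeR unadjusted p = 0.155). Without sgCda replicate 2 it was -0.46 with an unadjusted p of 0.0016 and an adjusted p of 0.9995. That tumor also had the highest adipocyte marker score (4.76 log2 CPM), whose part in the C4b value was not tested.

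Cfb, the protease of the alternative convertase, was at 1.82, 1.55, 3.13, 2.58 and 2.66 CPM with sgNT and at 1.75, 2.69, 2.29, 1.59 and 1.80 CPM with sgCda. All 5 sgCda values were inside the sgNT range, and the interval of the log2 fold change, -0.73 to 0.31 around -0.21, spans -39.7 to 23.7% on the linear scale. Serping1, which inactivates the C1 proteases, was at 58.6, 44.1, 69.0, 81.5 and 78.5 CPM with sgNT and at 49.0, 46.4, 53.9, 52.9 and 69.5 CPM with sgCda. It had the smallest p of the members (edgeR unadjusted p = 0.109, log2 fold change -0.29, SE 0.17, interval -0.65 to 0.08), with 4 of 5 sgCda tumors under the sgNT mean of 66.3 ± 15.3 CPM (SD, n = 5) and all 5 within its range. Serping1 and Cfb, like the interferon response markers, are known to be induced by interferon, whose part in these values was not tested. The interferon response markers were below 0 in log2 fold change in 12 of 12 genes, beside 47.1% of all genes tested, with 0 called, adjusted or not. They summed to 4232 to 6173 CPM with sgNT and 4001 to 5532 CPM in sgCda tumors. Other marker lists were as one-sided with 0 called: T cell and skeletal muscle markers were above 0 in 8 of 8 genes each. The relation of the interferon score to Serping1 was r = 0.55 (rho 0.54, adjusted permutation p 0.426 and 0.517, n = 10) and fell to 0.09 without sgNT replicates 3 and 4. The relation to Cfb was r = 0.42 (rho 0.33, adjusted permutation p 0.846 and 1) and came to -0.26 without the same tumors.

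Of the anaphylatoxin receptors, C3ar1 was at 173, 132, 162, 170.5 and 147 CPM with sgNT and at 149.6, 152, 203, 127 and 122 CPM with sgCda, and the log2 fold change was -0.06 (SE 0.13, interval -0.35 to 0.24). The highest and the 2 lowest tumors were all sgCda. C5ar1 was at 21.8, 20.4, 32.5, 36.5 and 24.5 CPM with sgNT and at 20.5, 24.8, 55.2, 20.9 and 22.5 CPM with sgCda. Here sgCda replicate 3 was alone at 55.2 CPM and the other 4 sgCda tumors lay under the sgNT mean of 27.1 CPM. That tumor had the highest muscle score (8.20 log2 CPM) and the highest T cell score (5.69). The muscle score was also high in sgCda replicate 1 (6.06), where C5ar1 was at 20.5 CPM. The part of either in the C5ar1 value was not tested. The log2 fold change was 0.09 (SE 0.29, interval -0.55 to 0.72), and without sgCda replicate 3 -0.29.

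**Figure D3:**
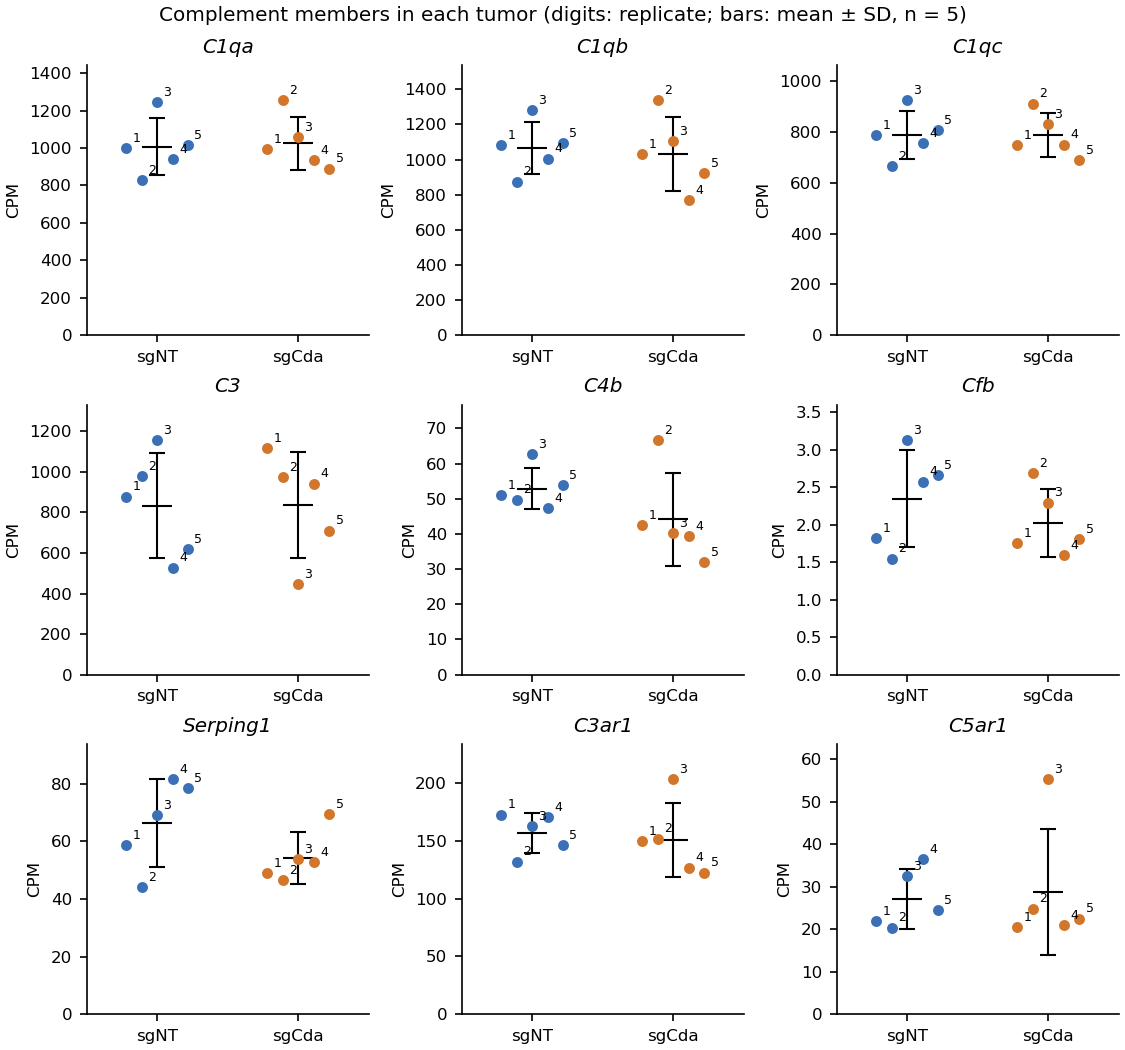
CPM of each member in each tumor (digits give the replicate), sgNT in blue and sgCda in orange, with mean ± SD of 5 tumors per group; axes start at 0. The groups overlap for all 9 genes; C5ar1 in sgCda replicate 3 (55.2 CPM) and C1qb in sgCda replicate 4 (769.6 CPM) lie away from their groups.

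The rest of the pathway was followed in 40 other complement genes. Of these 24 passed the filter, with fold changes above 0 in 12 and below 0 in 12 and a median log2 fold change of 0.0019, and 0 were called (background 0%). At an unadjusted p under 0.05 there was 1, Cd46, which was higher in sgCda, beside 1.54% of all genes in that direction. Cd46, a membrane cofactor that protects cells from complement, was at 0.539, 0.442, 0.341, 0.346 and 0.251 CPM with sgNT and at 1.02, 0.598, 0.504, 1.56 and 0.443 CPM with sgCda. The groups overlapped at this very low level (10 to 44 counts), although 5 of 5 sgCda tumors were above the sgNT mean, and the log2 fold change was 1.10 (SE 0.38, edgeR unadjusted p = 0.0154, adjusted p = 0.9996). Of its exonic bases 14.2% lie opposite genes on the other strand, and the strand setting of the counting is not given in the sources used here.

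In the classical pathway C1s1, a protease of the C1 complex, was at 59.0 ± 13.6 RPKM (SD, n = 10), whereas C4a was nearly silent at 0.0686 ± 0.0342 RPKM. Masp1, a lectin pathway protease, was at 22.4 ± 6.13 RPKM. Some pattern receptors listed with that pathway, Mbl1, Mbl2 and Fcnb, were at 0 counts in all 10 tumors, while Fcna and Colec12 passed the filter. Cfd, the adipocyte protease that activates factor B, ranged 39.6-fold, from 8.07 to 319 CPM, and its highest value was in sgCda replicate 2, the tumor with the highest adipocyte score. Of the soluble regulators, Clu, a chaperone that binds terminal components, was at 1.83 ± 0.382 RPKM. Cr1l (Crry), the mouse membrane regulator of C3 convertases, was the steadiest at 6.80 ± 0.457 RPKM, with a log2 fold change of 0.06 (SE 0.07). The union exon length far exceeds the longest coding transcript for Cr1l (10349 and 1651 bases) and Masp1 (9833 and 3786 bases). Per kilobase of that transcript the levels of both would be higher. Of the other receptors, Itgb2, the shared chain of complement receptors 3 and 4, was at 71.3 ± 13.1 RPKM and Itgax, the chain particular to receptor 4, at 19.0 ± 3.78 RPKM.

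The terminal pathway, which forms the membrane pore, was almost absent from tumor RNA. Its 7 genes summed to 2.48 to 4.35 CPM with sgNT and 2.27 to 4.49 CPM in sgCda tumors, against 2368 to 3451 CPM and 2455 to 3503 CPM for the C1q genes. C8g reached 1.25 ± 0.205 RPKM and C6 0.189 ± 0.105 RPKM, and C8b was at 0 counts in all 10 tumors, where 3 counts in a tumor correspond to 0.0754 to 0.106 CPM. The other genes under the filter were Masp2, Colec10, Colec11, C7, C8a, C9, Cfi, C4bp, Vtn, Cpn1, Cr2 and Vsig4, the last a receptor of resident macrophages with 9 counts in all.

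**Figure D4:**
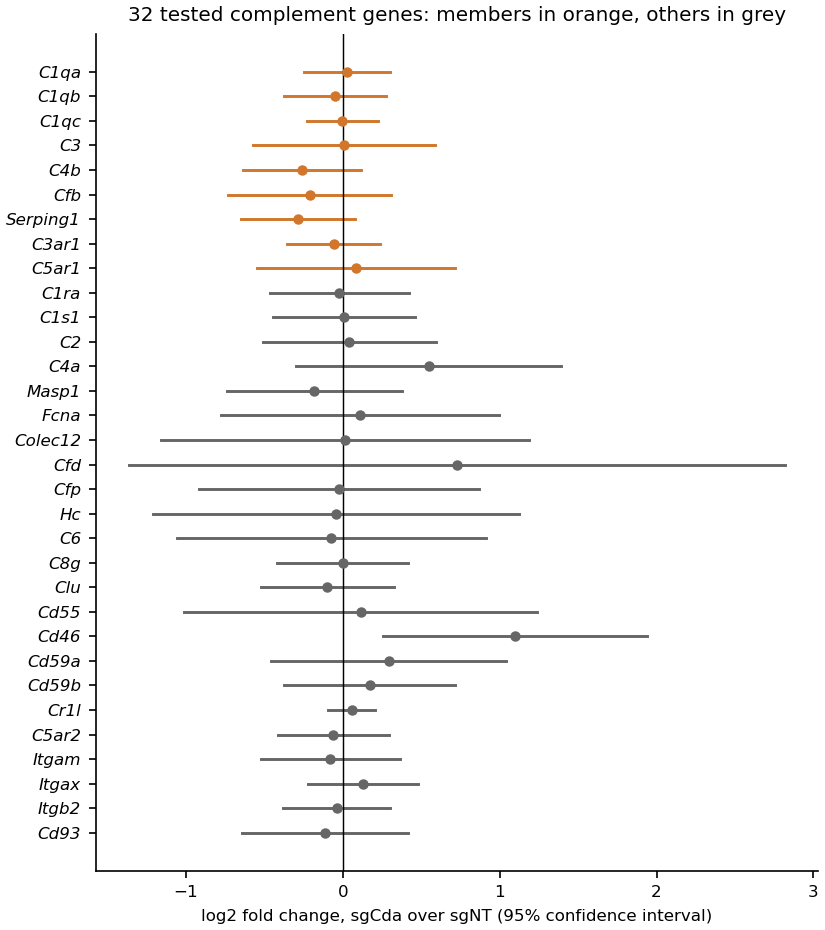
Log2 fold change of sgCda over sgNT tumors with its 95% confidence interval for 32 tested complement genes, members in orange and others in grey. All 9 member intervals include 0, and of the other 23 drawn the interval of Cd46 alone does not.

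Across tumors the C1q genes followed the macrophage markers. The macrophage score, the mean log2 CPM of 12 markers that do not include complement genes, ran from 7.25 to 7.76 in sgNT and from 7.26 to 7.76 in sgCda tumors. Over the 10 tumors Pearson's r with this score was 0.91 for C1qa, 0.93 for C1qb and 0.91 for C1qc, and Spearman's rho 0.89, 0.89 and 0.88. The permutation p adjusted over the 45 relations of members to 5 marker scores was 0.0025, 0.0025 and 0.0033 for r and 0.0208 for each rho. Without the pair of tumors farthest from the median score, sgNT replicate 3 and sgCda replicate 2, r was 0.85, 0.85 and 0.83. With values centred within the groups it was 0.92, 0.93 and 0.91. In bulk tissue, more macrophages and more C1q RNA per macrophage cannot be told apart, and all values share each library's scaling.

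No other relation to a score passed the adjustment. C3ar1 and Cfb, with r of 0.76 each to the macrophage score, had adjusted permutation p of 0.128 and 0.131 (rho 0.77 and 0.82, p 0.113 and 0.0648). Without sgNT replicate 3 and sgCda replicate 2, r was 0.96 for C3ar1 (exact permutation p = 0.00042, unadjusted) and 0.57 for Cfb (p = 0.137). C5ar1 had r = 0.57 and p = 0.365 (rho 0.71, p = 0.201). C3 had r = -0.03 and rho 0.05 with the macrophage score. Its r with the neutrophil score was 0.73 (rho 0.59, adjusted permutation p 0.131 and 0.505) and fell to 0.23 without sgNT replicate 4 and sgCda replicate 3. C3ar1 and C5ar1 ran the other way, with r of -0.67 and -0.66 to the neutrophil score (adjusted permutation p 0.200 each). Their rho was -0.55 and -0.39 (adjusted permutation p 0.517 and 0.967). Without the same tumors r was -0.24 and 0.19. The neutrophil markers did not move as one. In sgNT replicate 4 and sgCda replicate 3, S100a8, S100a9, Csf3r, Cxcr2 and Mmp9 were lowest, whereas Clec4d was highest (24.6 and 31.8 CPM). Of the relations to the fibroblast and pancreatic epithelial scores, the smallest adjusted permutation p was 0.899. The fibroblast score averages markers that did not move as one. In sgCda replicate 3 Dcn was at 614 CPM and Col1a2 at 1049 CPM, and in sgCda replicate 4 they were at 2422 and 23.0 CPM. The score can therefore miss a relation to some of its markers, and relations to single markers were not tested.

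**Figure D5:**
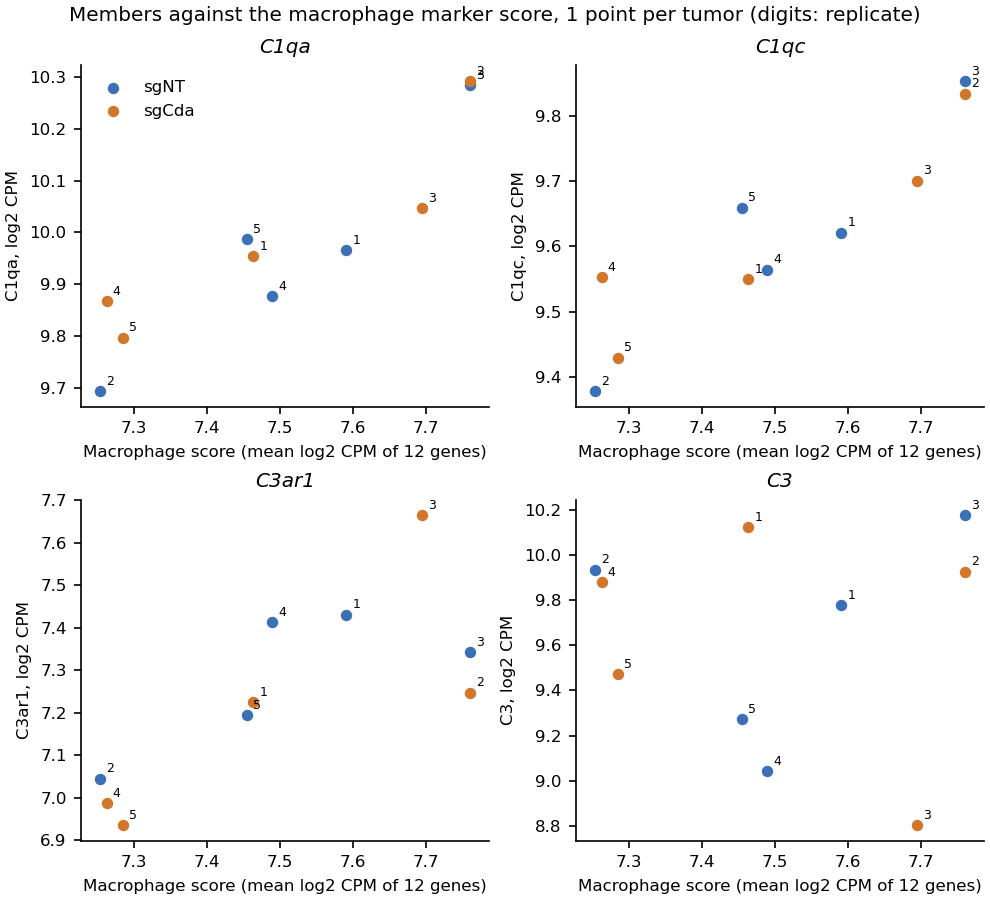
Log2 CPM of C1qa, C1qc, C3ar1 and C3 against the macrophage score, 1 point per tumor with its replicate number, sgNT in blue and sgCda in orange. C1qa and C1qc rise with the score (r 0.91 each), and C3 does not (r -0.03).

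Between the members, 7 of 36 pairs were called by r and 6 of these by rho as well. The share of called pairs over all genes was not computed, so this count cannot be read as particular to complement. C1qa and C1qc had r = 0.98 (rho 0.95, adjusted permutation p 0.00072 and 0.0022), C1qa and C1qb r = 0.88 (rho 0.96, p 0.0223 and 0.0018), and C1qb and C1qc r = 0.85 (rho 0.89, p 0.0235 and 0.0103). Without the 2 tumors farthest from the median of the second gene named, these were 0.96, 0.99 and 0.65 (exact permutation p 0.000223, 2.5e-05 and 0.0781). For C1qa and C1qb these tumors were sgCda replicates 2 and 4, and for the other pairs sgNT replicate 3 and sgCda replicate 2. The last, at 0.65, still included sgCda replicate 4, and without single tumors r of this pair ran from 0.79 to 0.99. Without sgCda replicate 4, in which C1qb is low, the pairs of C1qb came to 0.99 each. Cfb had r of 0.78, 0.81 and 0.82 with C1qa, C1qb and C1qc (adjusted permutation p 0.0299, 0.0235 and 0.0235; rho 0.84, 0.85 and 0.89, p 0.0221, 0.0202 and 0.0103), which became 0.57, 0.72 and 0.65 without sgNT replicates 2 and 3. The receptors C3ar1 and C5ar1 had r = 0.79 (p = 0.0259) but a rho of 0.62 (p = 0.134), and r was 0.45 without sgNT replicate 4 and sgCda replicate 3 and 0.59 without the latter alone, on which the relation rests. The count of called pairs was 2 without sgNT replicate 3, 1 without sgCda replicate 2 and 4 without sgCda replicate 4. The r of C3 with the C1q genes was 0.05 to 0.20, and none of these pairs was called.

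The genes outside the complement system whose log2 CPM was most like that of a member over the 10 tumors, among 11334 genes, are given as a description. For C1qa they were Orai1 (r = 0.98), Ctsz and Gpsm3 (0.96 each). Among the closest to C3ar1 were Pdgfb (0.96) and Slc28a2, a nucleoside transporter (0.95). C5ar1 was followed by Suv39h1 (0.996), Ctsc and Atp1b3 (0.99 each), values to which sgCda replicate 3 contributes. For C3 the nearest were Zfp952 (0.95), Gcc1 (0.94) and Zbtb24 (0.92). Cfb was closest to Cib1 (0.97), Tox4 (0.96) and Psme2 (0.94), and Serping1 to Exoc3l4 (0.92), Cdc42ep2 (0.91) and Elp5 (0.90).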

How the data were processed

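Total RNA was extracted by the authors with TRIzol, made into KAPA stranded mRNA libraries, sequenced on a HiSeq instrument with 50 bases read, aligned to GRCm38 (mm10) with TopHat and Bowtie, and counted per gene with HTSeq. The submitters' notes list FastQC 0.11.5, Bowtie2 and HTSeq 07.2, while the strand setting and annotation release are not given in the sources used here. The deposited values are raw counts, 37417 genes under Ensembl identifiers (11115 at 0 in all tumors) and 5 summary lines, which were left out; no-feature reads were 10.3 to 18.4% and ambiguous reads 2.70 to 2.84% beside them. A name table gave symbols for 32608.

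Groups came from the sample titles. Counts of all 10 tumors were filtered with filterByExpr (minimum count 10, total 15), scaled by TMM and tested with edgeR 4.0.16 (R 4.3.3; quasi-likelihood, Benjamini-Hochberg over 15299 genes). DESeq2 1.42.0, limma 3.58.1 and the other alternatives are treated at the end. Log2 CPM used a prior count of 2. Permutation tests used 100000 resamples, or every permutation where tumors were left out, and were two-sided, with adjustment over 45 relations and 36 pairs. Scripts were tested on simulated data. The labels do not say that the tumors are from separate mice, so p values measure the spread between these samples.

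Members and lists were chosen with earlier results of these data known. Of the 40 other complement genes, named with values were any with an adjusted p under 0.05 and, per role, the gene of highest level per kilobase and that of smallest p. The genes most like a member were the 3 of highest r with a mean log2 CPM of at least 2. Some genes that these rules name are not reported here.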

Additional observations from a re-analysis of the deposited data

Results flagged for a closer look

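In groups of 5 tumors, the most distant value was compared with the range of its group. Of 54 groups of values tested 5 held a distant value, where about 1 in 20 is flagged by chance. C5ar1 in sgCda replicate 3 was at 5.79 log2 CPM, and the other 4 sgCda tumors lay from 4.36 to 4.64. In the same tumor the neutrophil score was 2.68, beside 3.35 to 3.61 for the rest of its group. The ratio of C1qb to C1qa counts was 0.823 in sgCda replicate 4, with 1.04 to 1.07 in the rest of its group. The ratio of C1qc to C1qa was 0.742 in sgNT replicate 3, against 0.788 to 0.805. C6 was at 0.66 log2 CPM in sgCda replicate 1, against -1.24 to -0.79.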

How the results depend on the processing

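Under all 18 alternatives, 0 genes, members or other complement genes were called at an adjusted p under 0.05. The fold changes of C4b, Cfb and Serping1 kept their sign in all 18, with ranges without single tumors of -0.46 to -0.16, -0.33 to -0.09 and -0.41 to -0.21. Some fold changes changed sign, mostly values near 0, but also that of Cfd, which was 0.73 (SE 0.95) in the main analysis: with library totals C1qc was 0.0076 and C8g 0.0044; with a filter of 1 count in any tumor C3 was -0.0089 and C1s1 -0.017; with limma-voom C3 was -0.0016, C1s1 -0.041, Cfd -0.19 and C8g 0.0069; with the macrophage score as covariate C1qc was 0.0099 and C1s1 -0.00072. The genes at an unadjusted p under 0.05 rose to 830 with 1 count in any tumor, where more genes are tested. Without single tumors that count ran from 280.0 to 747 (the highest without sgCda replicate 3), the members at that level from 0 to 1 (Serping1 without sgNT replicate 2 or without sgCda replicate 5, C4b without sgCda replicate 2) and the other complement genes from 1 to 2. Log2 fold changes then ran from -0.052 to 0.12 for C1qa, -0.15 to 0.043 for C1qb, -0.060 to 0.061 for C1qc, -0.12 to 0.17 for C3, -0.19 to 0.011 for C3ar1, -0.29 to 0.21 for C5ar1, -0.13 to 0.15 for C1s1, -1.07 to 1.03 for Cfd, -0.080 to 0.078 for C8g, -0.65 to 0.14 for C6, -0.23 to 0.027 for Clu, -0.17 to 0.042 for Itgb2 and -0.021 to 0.24 for Itgax. The cause of these changes was not tested.

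The replicate numbers occur in both groups, and the labels do not say whether equal numbers share anything. Deviations of same-numbered tumors correlated from -0.43 to 0.34, and in 2 of 5 numbers the own number was highest. So few values cannot decide whether the tumors are paired, and the main test treats them as unpaired. With the replicate block 1 member, Serping1 (unadjusted p = 0.0326), was under 0.05, and C1s1 was -0.038, Cfd -0.24 and C8g 0.0045.

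The order of the members by mean level was the same with either length and either scaling. With the transcript length, however, Serping1 (34.1 RPKM) was close to C3ar1 (35.7 RPKM). The relations of the C1q genes to the macrophage score passed in all 13 alternatives, and the called relations to scores were 3 to 4 without single tumors. The called pairs were 10 with values centred within groups and ran from 1 to 7 without single tumors. With library totals they were 5, and C1qa and C1qc with Cfb (r 0.75 and 0.78) no longer passed (adjusted permutation p 0.0623 and 0.0538). Cfb had the fewest counts of the members, 45 to 106 per tumor, while the SE was larger for C3 (0.26) and C5ar1 (0.29) than for Cfb (0.24).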
